A study of Mus musculus with 12 samples.

Results

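Vascular endothelial growth factor (VEGF) and angiopoietin signalling was followed in the infarcted mouse heart through 10 genes, taken by symbol from the 53801 genes measured: the ligands *Vegfb*, *Vegfc* and *Pgf*, the receptors *Kdr*, *Flt1* and *Flt4*, the coreceptor *Nrp1*, the angiopoietins *Angpt1* and *Angpt2*, and their receptor *Tek*. Whole-heart RNA was sequenced from C57BL/6N mice in 3 groups of 4 libraries, namely sham-operated hearts and hearts taken 1 day or 7 days after acute myocardial infarction (day 1 AMI and day 7 AMI). Mice operated on in the study were males 10 to 14 weeks old, and the comparisons ask how gene expression differed at these times after the left coronary artery was tied off. The ligation of a normal artery was permanent, so no group was reperfused. The day of harvest of the sham hearts was not given in the sources used here. In RNA from whole hearts, fewer cells of a type and less RNA per cell cannot be told apart, and gene-level counts do not separate the soluble splice form of *Flt1* from the full-length receptor. The labels do not name the animal behind each library, so p-values measure only the spread between these libraries.

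VEGF ligands are secreted proteins that drive endothelial cells to divide, migrate and form new vessels. KDR (VEGFR2) carries most of the mitogenic signal, whereas FLT1 (VEGFR1) binds ligand tightly with weak kinase activity and also exists as a soluble decoy. VEGF-B and placental growth factor (PGF) bind FLT1, and VEGF-C binds FLT4 (VEGFR3), the receptor best known from lymphatic vessels. In the Tie system, angiopoietin-1 from cells around the vessel activates Tie2, the product of *Tek*, and keeps the endothelium quiet, while angiopoietin-2 from the endothelium itself acts largely as its context-dependent antagonist and loosens vessels for remodeling.

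Among RefSeq promoters on GRCm38.p6, 8 of the 10 genes were matched, with 9 start sites (2 for *Pgf*), and no window was taken for *Angpt1* or *Angpt2*. The 250 bases before the start are printed for *Pgf*, which had the largest change of the 10 on day 1, and for *Kdr* and *Flt1*, the receptors whose levels parted on day 7. Capitals mark GCGTG or its reverse complement CACGC, the core of the element bound by hypoxia-inducible factors in one of its forms.
Pgf, chr12:85177314-85177563, minus strand: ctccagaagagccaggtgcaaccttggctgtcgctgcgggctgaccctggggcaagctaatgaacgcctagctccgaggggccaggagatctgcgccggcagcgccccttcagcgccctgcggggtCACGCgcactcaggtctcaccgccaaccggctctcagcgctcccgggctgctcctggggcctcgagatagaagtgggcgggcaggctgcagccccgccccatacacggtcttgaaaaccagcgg
Kdr, chr5:75978456-75978705, minus strand: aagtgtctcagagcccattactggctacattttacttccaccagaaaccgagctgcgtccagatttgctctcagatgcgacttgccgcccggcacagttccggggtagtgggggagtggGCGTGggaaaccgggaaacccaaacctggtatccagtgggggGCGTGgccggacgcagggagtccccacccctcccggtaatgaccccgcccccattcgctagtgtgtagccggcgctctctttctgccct
Flt1, chr5:147726012-147726261, minus strand: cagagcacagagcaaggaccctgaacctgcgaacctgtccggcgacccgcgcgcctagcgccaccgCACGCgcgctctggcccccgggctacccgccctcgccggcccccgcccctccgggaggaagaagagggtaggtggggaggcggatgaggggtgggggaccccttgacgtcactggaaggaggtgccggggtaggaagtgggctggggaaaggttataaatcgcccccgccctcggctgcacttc
The window before the other *Pgf* start, chr12:85175983-85176232, held no match. The starts are those of RefSeq, and both *Pgf* windows lie within the GENCODE bounds of the gene, 85166635 to 85177790. GCGTG on either strand was in 5 of the 9 windows, 1 each of *Flt1*, *Kdr*, *Nrp1*, *Pgf* and *Vegfb*, against 28.2% of 32851 promoter windows of the same length. The form ACGTG was in none of the 9, against 16.6% of all windows, and the AP-1 motif TGACTCA was in none, against 4.46%. GCGTG and ACGTG share the letters CGTG, and a match describes letters, not a bound site.

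Libraries held 23204551 to 32166517 counts, and each of the 10 genes had at least 3 counts in every library and passed edgeR's filter, as did 15306 genes in all. Levels are counts scaled to a common library total (CPM) after TMM normalization, which corrects for libraries dominated by a few abundant transcripts. A gene rose or fell where edgeR's quasi-likelihood test gave an adjusted p below 0.05 over the 15306 genes, and it was a differentially expressed gene (DEG) where the fold change (FC) was also 2 or greater. Scaling mattered in these hearts. With limma on log2(TPM + 1), the median change of all genes tested was 0.23 in day 1 AMI against sham, 0.44 in day 7 AMI against sham, and 0.18 between the AMI groups, where TMM put it at −0.01, 0.03 and 0.02. Where this scaling ended a call or turned a direction for any of the 10 genes, its value stands beside the gene. The labelled tissue was checked against 8 cardiomyocyte markers, whose summed TPM (length-corrected transcript abundance from RSEM) was 60169 to 65438 in sham, 48568 to 55254 on day 1 and 45584 to 52975 on day 7. One sham heart, replicate 2, had a summed TPM of 15170 for 5 erythroid markers, against 1617 to 3635 in the other sham hearts. It also had the highest sham sums of 6 neutrophil markers (235 TPM, against 4.39 to 104) and of 10 macrophage and monocyte markers (257 TPM, against 157 to 214).

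In day 1 AMI against sham, 3 of the 10 genes rose (*Pgf*, *Angpt2* and *Flt4*), against 22.0% of all genes tested, and 3 fell (*Kdr*, *Vegfb* and *Tek*), against 19.9%. The share of all genes that passed in either direction was 41.8%, and *Pgf* and *Angpt2* were DEGs, against 10.8% of all genes. On day 7, 2 genes were above sham (*Angpt2* and *Flt4*), against 30.9% of all genes, and 3 were below it (*Vegfb*, *Flt1* and *Angpt1*), against 28.4%, with 59.3% of all genes past the test. *Angpt2* and *Vegfb* were DEGs there, against 21.2%. Between day 7 and day 1 AMI, 4 rose (*Kdr*, *Tek*, *Vegfc* and *Flt4*), against 24.2% of all genes, and 4 fell (*Pgf*, *Angpt1*, *Vegfb* and *Flt1*), against 22.8%, with 47.0% past the test in either direction. *Pgf* and *Angpt1* were DEGs in that comparison, against 11.2%. The median log2 FC of the 10 genes was −0.10, −0.01 and −0.13 in these comparisons. The CPM of the groups did not overlap for 3 genes in the first comparison (36.7% of all genes), for 3 in the second (53.0%), and for 8 between the AMI groups (44.5%). This separation depended on the scaling. In day 1 AMI against sham 0 genes lay higher and 3 lower in CPM, but 3 lay higher and 0 lower in TPM. In TPM 5 lay higher and 1 lower in day 7 AMI against sham, and 4 and 3 between the AMI groups. The matching shares of all genes in TPM were not computed. The genes moved in both directions, and they are described by their roles.

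**Figure D1:**
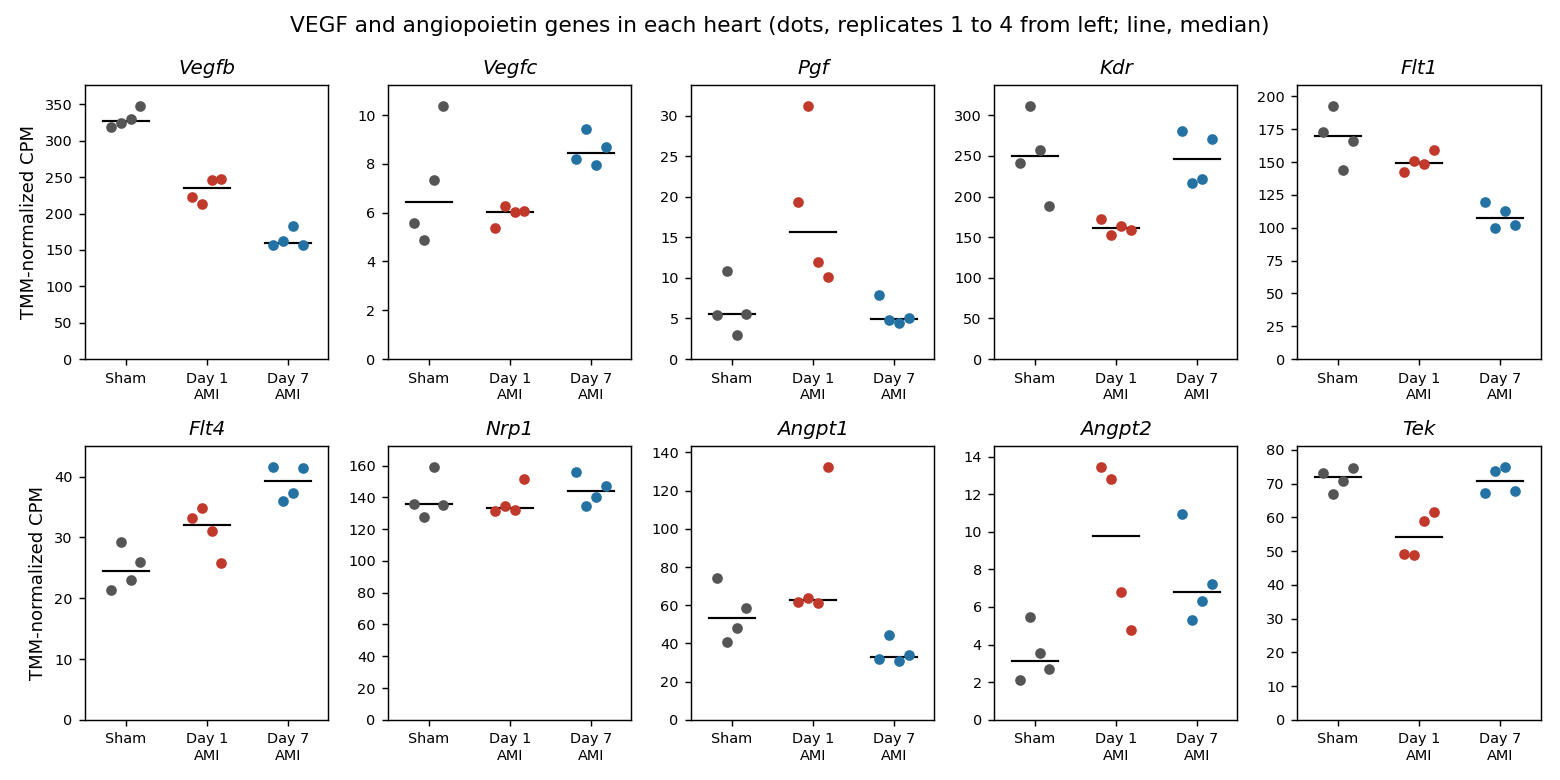
TMM-normalized CPM (vertical axis, from 0) of the 10 genes in each of the 12 hearts, with dots for replicates 1 to 4 from left to right and a line at the group median. *Pgf* peaks in day 1 AMI at 10.1 to 31.2 CPM, *Kdr* and *Tek* dip there, and *Vegfb* steps down from 319 to 348 CPM in sham to 157 to 183 in day 7 AMI.

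*Pgf* (ENSMUSG00000004791, GRCm38 chromosome 12, 85166635 to 85177790, minus strand), the FLT1 ligand whose promoter is shown above, rose for a single time point. Its CPM was 5.48, 10.8, 2.91 and 5.55 in the 4 sham hearts, 19.4, 31.2, 11.9 and 10.1 in day 1 AMI, and 7.92, 4.83, 4.50 and 5.07 in day 7 AMI. Sham replicate 2, which had the highest erythroid, neutrophil and macrophage marker sums in sham, was the highest sham heart for *Pgf*. Without it each day 1 AMI heart exceeded each sham heart. *Pgf* on day 1 was 2.91-fold higher than in sham (log2 FC 1.54, SE 0.383, adjusted p = 0.0055). From day 1 to day 7 it fell by 1.70 on the log2 scale (SE 0.381, adjusted p = 0.00233), with no overlap between the groups. Both changes passed under each scaling and with each heart left out, where the day 1 rise ran from 1.15 to 1.97. In day 7 AMI against sham the log2 FC was −0.15 (adjusted p = 0.755), and the sign turned with limma on log2(TPM + 1), at 0.43, and without sham replicate 2, at 0.27. The part of erythroid or other blood transcripts in these values was not tested.

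*Vegfb* (ENSMUSG00000024962, chromosome 19, 6982473 to 6987651, minus strand), a ligand of FLT1 with a known role in cardiac muscle, was the most abundant of the 10 genes per transcript length and fell in steps. Its CPM was 319, 324, 330 and 348 in sham, 223, 213, 246 and 247 on day 1 and 157, 162, 183 and 157 on day 7. The 3 groups did not overlap in CPM, but in TPM day 1 AMI overlapped sham. Against sham, *Vegfb* had a log2 FC of −0.51 on day 1 (SE 0.0791, adjusted p = 0.00025) and −1.01 on day 7 (SE 0.0797, adjusted p = 2.23e-07), and it fell by a further 0.50 between the AMI groups (adjusted p = 0.000182). On the log2(TPM + 1) scale the day 1 change did not pass (−0.18, adjusted p = 0.0884 with limma), while the day 7 fall did, short of a DEG (−0.45, adjusted p = 0.000347). Of 8 cardiomyocyte markers 6 fell in day 1 AMI and 7 in day 7 AMI with TMM, against 19.9% and 28.4% of all genes. With limma on log2(TPM + 1) 3 fell and 1 rose on day 1, and 5 fell on day 7, where 737 and 1023 of 15306 genes fell. For each 1000 TPM of summed cardiomyocyte markers there were 5.98 ± 0.433 TPM of *Vegfb* (SD, n = 4) in sham, 6.25 ± 0.374 on day 1 and 5.53 ± 0.238 on day 7, and these ranges overlapped in each comparison.

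*Vegfc* (ENSMUSG00000031520, chromosome 8, 54077606 to 54187096), the ligand of FLT4, had 5.58, 4.89, 7.32 and 10.4 CPM in sham, 5.35, 6.27, 6.02 and 6.05 on day 1 and 8.20, 9.43, 7.97 and 8.71 on day 7. Sham hearts spread over more than the range of both AMI groups. It rose from day 1 to day 7 (log2 FC 0.53, SE 0.187, adjusted p = 0.0303) with no overlap, and the call was lost in 5 of the 12 fits that left out 1 heart each, where the adjusted p reached 0.079. Against sham the log2 FC was −0.25 in day 1 AMI (adjusted p = 0.317), which turned to 0.27 with limma on log2(TPM + 1), and 0.29 in day 7 AMI (adjusted p = 0.207), which passed on that scale at 0.86 (adjusted p = 0.000612). With single hearts left out this day 7 value ran from 0.14 to 0.53, and it passed without sham replicate 4 (adjusted p = 0.0083).

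*Kdr* (ENSMUSG00000062960, chromosome 5, 75932827 to 75978458, minus strand), the main signalling receptor, dipped on day 1. Its CPM was 242, 311, 257 and 188 in sham, 173, 153, 163 and 158 on day 1 and 280, 216, 222 and 271 on day 7. In CPM each day 1 AMI heart was below each heart of both other groups, but in TPM day 1 AMI overlapped sham. On day 1 *Kdr* fell by 0.63 on the log2 scale against sham (SE 0.132, adjusted p = 0.00201), a call that did not pass with limma on log2(TPM + 1) (−0.28, adjusted p = 0.165) or on library sizes alone (−0.36, adjusted p = 0.0645). Between the AMI groups *Kdr* rose by 0.61 (SE 0.132, adjusted p = 0.0018), and this passed under each scaling and with each heart left out. In day 7 AMI against sham the log2 FC was −0.01 (adjusted p = 0.932), against 0.55 with limma on log2(TPM + 1) (adjusted p = 0.00692), so its direction there depended on the scaling.

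*Flt1* (ENSMUSG00000029648, chromosome 5, 147561604 to 147726011, minus strand), the receptor with weak kinase activity, went the other way on day 7. It had 173, 193, 144 and 166 CPM in sham, 143, 151, 149 and 159 on day 1 and 119, 100, 112 and 102 on day 7. In CPM each day 7 AMI heart was below each heart of both other groups, but in TPM day 7 AMI overlapped both. Against sham *Flt1* on day 7 fell by 0.64 on the log2 scale (SE 0.0922, adjusted p = 3.96e-05) and by 0.47 against day 1 AMI (SE 0.0920, adjusted p = 0.000891). With limma on log2(TPM + 1) neither passed, at −0.08 (adjusted p = 0.512) and −0.23 (adjusted p = 0.0989), although the median gene rose by 0.44 and 0.18 there. In day 1 AMI against sham the log2 FC was −0.17 (adjusted p = 0.151), with the opposite sign on that scale (0.15).

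The ratio of *Flt1* to *Kdr* in a heart does not depend on how libraries are scaled. In TPM it was 0.627, 0.547, 0.490 and 0.772 in sham, 0.722, 0.860, 0.791 and 0.875 on day 1 and 0.372, 0.404, 0.442 and 0.328 on day 7. Every day 7 AMI heart had a lower ratio than every other heart, by 0.64 on the log2 scale against sham and by 1.08 against day 1 AMI, whereas sham and day 1 AMI overlapped (0.43 higher in day 1 AMI). From counts in place of TPM the differences were −0.63 and −1.07. With single hearts left out they ran from −0.74 to −0.52 and from −1.14 to −1.0. This ratio was chosen with the values known and carries no test.

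**Figure D2:**
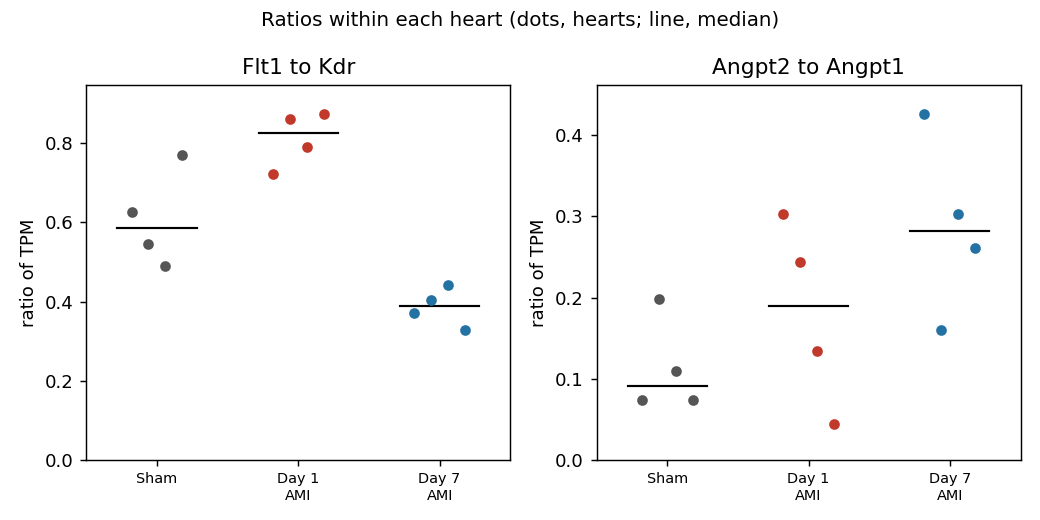
Ratio of TPM within each heart (vertical axis, from 0) for *Flt1* to *Kdr* and for *Angpt2* to *Angpt1*, with a dot per heart and a line at the group median. The day 7 AMI hearts sit at 0.328 to 0.442 for *Flt1* to *Kdr*, below the sham range of 0.490 to 0.772, while the groups overlap for *Angpt2* to *Angpt1*.

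*Flt4* (ENSMUSG00000020357, chromosome 11, 49609263 to 49652739), the VEGF-C receptor, rose over the time course. Its CPM was 21.4, 29.3, 23.0 and 26.0 in sham, 33.2, 34.9, 31.0 and 25.9 on day 1 and 41.6, 35.9, 37.4 and 41.4 on day 7. Day 7 AMI lay above both other groups, and day 1 AMI replicate 4 lay within the sham range. On day 7 *Flt4* was 0.65 above sham on the log2 scale (SE 0.113, adjusted p = 0.000211), and that rise passed in each of the 12 fits that left out a heart. The day 1 rise was smaller, at 0.32 (SE 0.113, adjusted p = 0.0338), and was lost in 6 of those 12 fits, and the rise from day 1 to day 7 (0.32, adjusted p = 0.0282) was lost in 4. The day 1 rise, the day 7 rise and the rise between them were 0.55, 1.06 and 0.51 with limma on log2(TPM + 1). Single lymphatic markers moved in both directions. *Prox1*, the transcription factor that sets lymphatic identity, fell by 0.70 in day 1 AMI and by 0.81 in day 7 AMI against sham on the log2 scale (adjusted p = 0.000819 and 9.72e-05). Its day 7 fall did not pass with limma on log2(TPM + 1). Which cells of the whole heart gave the falls of *Prox1* was not tested. *Pdpn* rose by 2.83 and 1.65 (adjusted p = 9.42e-07 and 4.13e-06), and podoplanin is also made by cells outside the lymphatics. Of 6 lymphatic markers 5 were tested, with 1 higher and 3 lower than sham at each time, against 1 higher and 1 lower on day 1 and 2 higher and 0 lower on day 7 with limma on log2(TPM + 1). With TMM 22.0% of all genes were higher and 19.9% lower on day 1, and 30.9% and 28.4% on day 7. Their summed TPM was 25.7 to 36.5 in sham, 47.8 to 62.9 on day 1 and 38.7 to 43.7 on day 7, so every AMI heart lay above every sham heart in this sum, and *Ccl21a* was at 0 in every library. *Pdpn* was the 1 marker higher than sham with TMM, and its part in this sum was not tested.

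*Nrp1* (ENSMUSG00000025810, chromosome 8, 128358604 to 128503363), the coreceptor that presents VEGF to KDR, stayed between 127 and 159 CPM in the 12 hearts. Its log2 FC was −0.02, 0.05 and 0.07 in the 3 comparisons (adjusted p = 0.857, 0.621 and 0.497), and none passed. On the log2(TPM + 1) scale it rose by 0.30, 0.60 and 0.30 (limma, adjusted p = 0.0301, 0.000179 and 0.0279). A microRNA gene, *Mir1903*, overlaps 0.818% of its exon bases.

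*Angpt2* (ENSMUSG00000031465, chromosome 8, 18690263 to 18741562, minus strand), the destabilizing angiopoietin, was the least abundant of the 10 genes per transcript length and rose at both times. It had 2.14, 5.46, 3.54 and 2.68 CPM in sham, 13.5, 12.8, 6.80 and 4.76 on day 1 and 10.9, 5.33, 6.31 and 7.24 on day 7. Sham replicate 2 overlapped both AMI groups, and the other sham hearts lay below all AMI hearts. The FC against sham was 2.71 in day 1 AMI (log2 FC 1.44, SE 0.357, adjusted p = 0.00554) and 2.14 in day 7 AMI (log2 FC 1.10, SE 0.358, adjusted p = 0.0162). Both rises passed with limma on log2(TPM + 1), at less than a FC of 2 (log2 FC 0.90 and 0.92). With a pseudocount of 0.1 in place of 1 they were 1.22 and 1.26 (limma, adjusted p = 0.00932 and 0.00458). Whether these rises were DEGs on the TPM scale thus depended on the pseudocount. The day 7 call was lost without sham replicate 1 (0.93, adjusted p = 0.0526) and without day 7 AMI replicate 1 (0.85, adjusted p = 0.0609). Between the AMI groups the log2 FC was −0.34 (adjusted p = 0.432), and 0.01 with limma on log2(TPM + 1).

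*Angpt1* (ENSMUSG00000022309, chromosome 15, 42424723 to 42676977, minus strand), the Tie2 agonist, was lower on day 7 than on day 1. Its CPM was 74.3, 40.6, 48.2 and 58.7 in sham, 61.4, 63.6, 61.4 and 132 on day 1 and 31.9, 44.4, 31.0 and 33.7 on day 7. Replicate 4 of day 1 AMI stood far above its group, and the day 7 AMI hearts lay below each day 1 AMI heart. From day 1 to day 7 *Angpt1* fell by 1.18 on the log2 scale (SE 0.249, adjusted p = 0.0015), and by 0.82 at the least with a heart left out. That fall was −0.83 with limma on log2(TPM + 1) (adjusted p = 0.0123), less than the FC of 2 of a DEG. Against sham it fell by 0.65 in day 7 AMI (SE 0.248, adjusted p = 0.035), a call lost in 5 of 12 fits that left out a heart and with limma on log2(TPM + 1) (−0.07, adjusted p = 0.806). In day 1 AMI against sham the log2 FC was 0.53 (adjusted p = 0.0993), 0.17 without replicate 4 of day 1 AMI, 0.70 and past the test without sham replicate 1 (adjusted p = 0.0474), and 0.76 with limma on log2(TPM + 1) (adjusted p = 0.0185). The antisense gene *Gm17473* overlaps 14.2% of the exon bases of *Angpt1*, and the strand counted was not given in the sources used here.

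The ratio of *Angpt2* to *Angpt1* in TPM was 0.0733, 0.198, 0.109 and 0.0733 in sham, 0.303, 0.244, 0.134 and 0.0435 on day 1 and 0.426, 0.160, 0.303 and 0.261 on day 7. On the log2 scale the day 7 ratio stood 1.38 above that of sham, although day 7 AMI replicate 2 lay within the sham range. On day 1 it was 0.47 higher in TPM and 0.94 higher in counts, and the hearts ranged from below the lowest sham heart to above the highest.

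*Tek* (ENSMUSG00000006386, chromosome 4, 94739289 to 94874976), the Tie2 receptor, dipped like *Kdr*. Its CPM was 73.0, 66.9, 70.7 and 74.6 in sham, 49.2, 48.8, 59.0 and 61.5 on day 1 and 67.2, 73.7, 75.0 and 67.8 on day 7. In CPM each day 1 AMI heart was below each heart of both other groups, but in TPM day 1 AMI overlapped sham. On day 1 *Tek* was at −0.38 against sham on the log2 scale (SE 0.0871, adjusted p = 0.00314), which did not pass with limma on log2(TPM + 1) (−0.07, adjusted p = 0.56), and 0.38 from day 1 to day 7 (SE 0.0869, adjusted p = 0.0028), which passed under each scaling. In day 7 AMI against sham it was −0.01 (adjusted p = 0.947), with a rise of 0.53 on the log2(TPM + 1) scale (adjusted p = 0.000191).

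**Figure D3:**
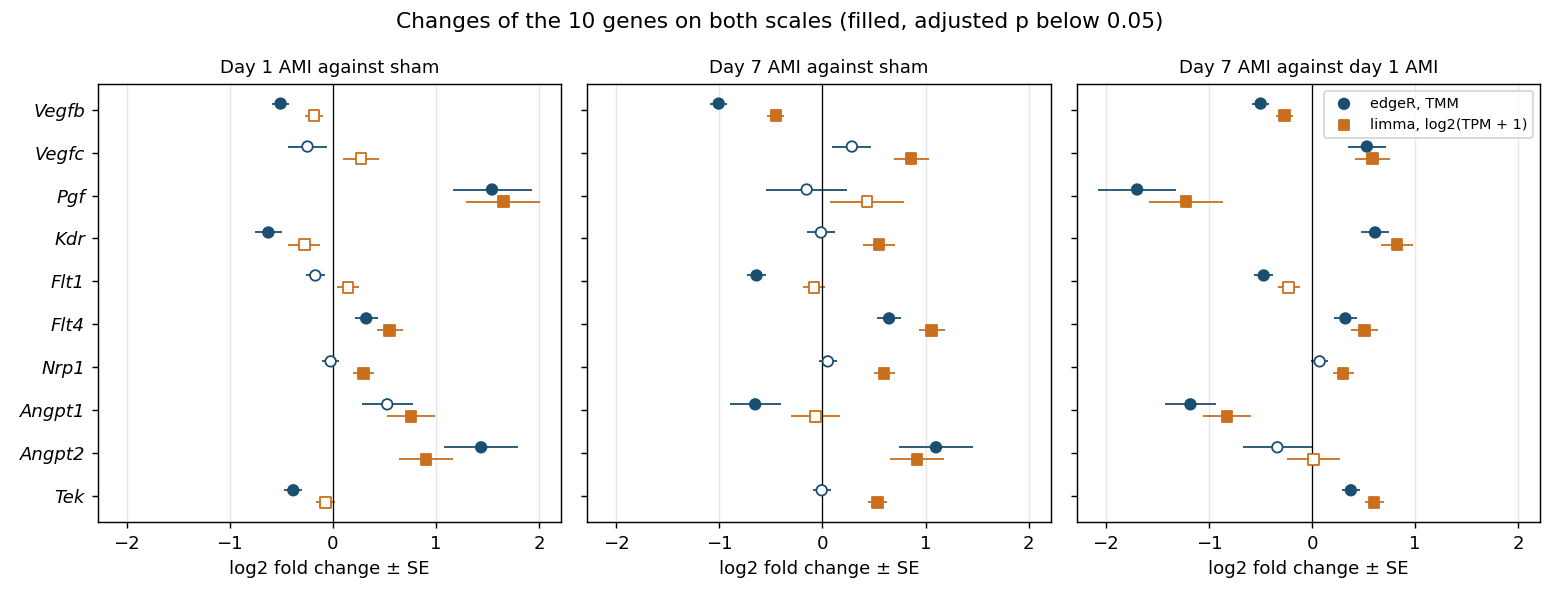
Log2 FC (horizontal axis) of the 10 genes in the 3 comparisons, with bars for 1 SE, circles for edgeR with TMM and squares for limma on log2(TPM + 1), filled where the adjusted p was below 0.05. *Pgf* on day 1 (1.54 and 1.65) and *Kdr* from day 1 to day 7 (0.61 and 0.83) are filled on both scales, whereas *Kdr* and *Tek* in day 7 AMI against sham lie at −0.01 with TMM and at 0.55 and 0.53 on the TPM scale.

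Levels were ranked between genes in TPM, which divides by transcript length. In sham the median TPM was 386 for *Vegfb*, 46.7 for *Kdr*, 43.9 for *Nrp1*, 26.9 for *Flt1*, 18.8 for *Tek*, 14.5 for *Angpt1*, 4.62 for *Pgf*, 4.45 for *Flt4*, 3.52 for *Vegfc* and 1.42 for *Angpt2*. The ranges of *Kdr* and *Nrp1*, of *Tek* and *Angpt1*, and of *Pgf*, *Flt4* and *Vegfc* in turn overlapped. The ranges alone thus do not order these neighbours, and genes were not compared within each heart. On day 1 the median TPM of *Nrp1*, 53.8, stood above that of *Kdr*, 38.8, with no overlap, and *Pgf* reached 16.2, within the range of *Tek*. In day 7 AMI *Kdr* (69.9) and *Nrp1* (69.2) overlapped again, and *Tek* (27.1) and *Flt1* (26.3) overlapped.

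The receptors and the coreceptor *Nrp1* were set beside 15 endothelial markers. A share of the marker sum is not a level per endothelial cell, and the part of other cells in these transcripts was not tested. On day 1, 1 marker rose and 3 fell against sham, and in day 7 AMI 12 rose and 1, *Fabp4*, fell. For all genes tested, 22.0% rose and 19.9% fell on day 1, and 30.9% rose and 28.4% fell on day 7. The day 1 balance turned with the scaling, to 7 higher and 1 lower with limma on log2(TPM + 1) and 5 higher and 1 lower on library sizes alone, while 13 rose on day 7 under both. Among all 15306 genes, 6171 and 6289 rose on day 1 and 9423 and 8237 on day 7 under these scalings. Their summed TPM was 1171 to 1581 in sham, 1319 to 1460 on day 1 and 2200 to 2487 on day 7. As a share of that sum, *Flt1* was 2.00% ± 0.319 (SD, n = 4) in sham, 2.26% ± 0.114 on day 1 and 1.13% ± 0.0896 on day 7, and each day 7 AMI heart was below each other heart. *Kdr* was 3.35% ± 0.656, 2.80% ± 0.218 and 2.96% ± 0.393 in the same order, and *Tek* was 1.30% ± 0.123, 1.27% ± 0.167 and 1.15% ± 0.0554, with overlap in each comparison. *Flt4* was 0.316% ± 0.0370, 0.511% ± 0.0577 and 0.444% ± 0.0333, and both AMI groups lay above sham. *Nrp1* was 3.20% ± 0.306, 4.05% ± 0.316 and 2.94% ± 0.204, with day 1 AMI above both others.

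The denominator changed some of these shares. *Fabp4* alone made up 52.5% of the marker sum in sham, 40.7% on day 1 and 37.9% on day 7. Against *Cdh5*, the gene of VE-cadherin, which rose by 0.81 on the log2 scale in day 7 AMI against sham (adjusted p = 1.56e-05), the day 7 ratio in TPM differed from that of sham by −1.46 for *Flt1* on the log2 scale. The same difference was −0.82 for *Kdr*, −0.82 for *Tek* and −0.77 for *Nrp1*, with no overlap for these 4 receptors, and −0.16 for *Flt4*, with overlap. *Flt1* was thus low on day 7 against both denominators, while the standing of the other receptors followed the marker chosen.

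**Figure D4:**
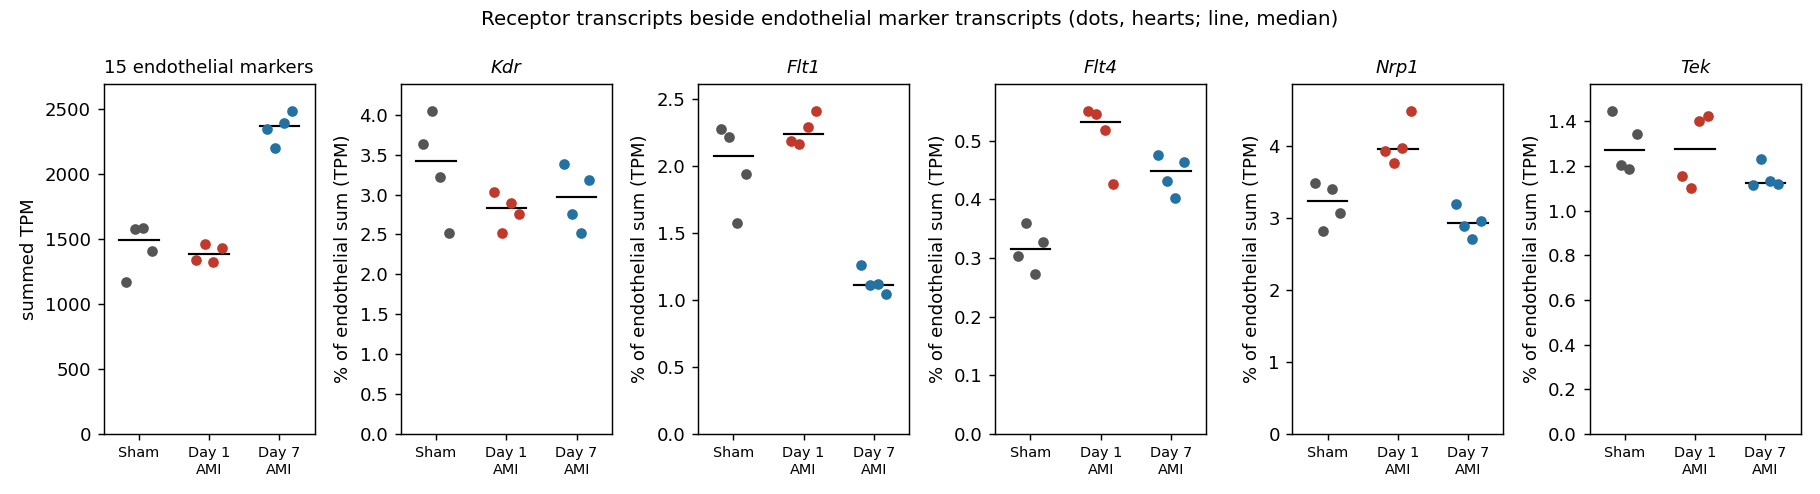
Summed TPM of 15 endothelial markers (left panel) and the TPM of each receptor as a percent of that sum (other panels), with axes from 0, a dot per heart and a line at the group median. The marker sum is 2200 to 2487 TPM in day 7 AMI, above the 1171 to 1581 of sham, and the share of *Flt1* is lowest there, at 1.04% to 1.26%.

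Markers of other cells that respond to or supply these ligands also changed in the same RNA. With TMM, 22.0% of all genes tested rose and 19.9% fell in day 1 AMI against sham, and 30.9% rose and 28.4% fell in day 7 AMI. Under limma on log2(TPM + 1), 6171 of 15306 genes rose and 737 fell on day 1, and 9423 rose and 1023 fell on day 7. Of 8 mural cell markers, the pericytes and smooth muscle around vessels, 2 rose and 3 fell in day 1 AMI, and 4 rose and 2 fell in day 7 AMI, against 4 and 2 on day 1 and 6 and 1 on day 7 with limma on log2(TPM + 1). Their summed TPM was 266 to 324 in sham, 274 to 300 on day 1 and 510 to 562 on day 7. All 10 macrophage and monocyte markers rose at both times, with a summed TPM of 157 to 257, 430 to 660 and 767 to 1199 in the 3 groups. Of 7 fibroblast markers, 5 rose and 1 fell in day 1 AMI and 7 rose in day 7 AMI, with sums of 466 to 574, 632 to 834 and 3285 to 5328 TPM. Of 6 neutrophil markers, 3 rose in day 1 AMI, and 1 rose and 1 fell in day 7 AMI, with sums of 4.39 to 235, 117 to 483 and 13.4 to 175 TPM. Of 5 erythroid markers 3 fell at each time against sham, where without 1 heart the number ran from 0 to 5, and these falls were lost with limma on log2(TPM + 1). The part of these cells in the changes of the 10 genes was not tested.

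Other genes of the same pathways were taken from 3 lists. Of all genes tested, 22.0% rose and 19.9% fell in day 1 AMI against sham, and 30.9% rose and 28.4% fell in day 7 AMI. Of 16 further ligands, coreceptors, ligand-processing proteins and Tie-pathway genes, 4 rose and 3 fell in day 1 AMI, and 10 rose and 1 fell in day 7 AMI, with a median log2 FC of 0.13 and 0.68 against −0.01 and 0.03 for all genes. On day 1 the largest rise was that of *Dok2*, an adaptor downstream of Tie2 that leukocytes also carry, at 2.24 (SE 0.264, adjusted p = 4.36e-05). *Angpt4*, the angiopoietin-4 gene, had 1 to 5 counts in the sham hearts, 9 to 31 on day 1 and 17 to 39 on day 7. It passed the filter on low counts through the AMI hearts, so its fold and adjusted p are not given. It is among the genes counted as risen at both times. *Ccbe1*, whose product helps process VEGF-C, fell by 0.48 (adjusted p = 0.041), and *Foxo1*, the transcription factor that Tie2 signalling restrains, fell by 0.41 (adjusted p = 0.0036). On day 7 *Adamts14*, a procollagen protease related to the VEGF-C protease ADAMTS3, was 2.20 above sham (adjusted p = 7.43e-06), while *Ccbe1* was 0.67 lower (−0.67, adjusted p = 0.00516). Singled out after their values were seen, *Vegfd*, the second FLT4 ligand, and *Nrp2*, the VEGF-C coreceptor, rose by 1.81 and 1.52 in day 7 AMI (adjusted p = 0.000124 and 1.45e-07), and *Tie1*, the partner of Tie2, by 0.33 (adjusted p = 0.0318). These adjusted p values do not allow for that choice, and 5 of the 16 genes did not pass in day 7 AMI against sham. With limma on log2(TPM + 1), 8 rose and 0 fell on day 1, and 13 rose and 0 fell on day 7. On that scale 6171 of all 15306 genes rose and 737 fell on day 1, and 9423 rose and 1023 fell on day 7.

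Of 44 genes of VEGF receptor signal transduction, the kinases, lipases and adaptors that carry the signal inward, 20 rose and 7 fell in day 1 AMI and 19 rose and 10 fell in day 7 AMI. For all genes tested the shares were 22.0% and 19.9% on day 1 and 30.9% and 28.4% on day 7. *Ptgs2*, the inducible cyclooxygenase, rose by 3.00 on day 1 (SE 0.492, adjusted p = 0.000354). *Sh2d2a*, a T cell adaptor that also binds KDR, had 1 to 2 counts in the sham hearts, 1 to 17 on day 1 and 11 to 33 on day 7. It too passed the filter through the AMI hearts, so its fold and adjusted p are not given. It is among the genes counted as risen at both times. *Pik3r1*, the regulatory subunit of PI3-kinase, fell by 0.57 (adjusted p = 0.011) and *Plcg1*, the phospholipase that KDR activates, by 0.49 (adjusted p = 0.000902). On day 7 *Sphk1*, a sphingosine kinase, was 2.26 above sham (adjusted p = 0.000329), and *Pik3r1* and *Akt2*, a kinase downstream of PI3-kinase, were at −0.94 and −0.84 (adjusted p = 0.000167 and 1.59e-06). The falls depended on the scaling, with 0 and 1 lower on days 1 and 7 and 30 and 32 higher with limma on log2(TPM + 1). Among all 15306 genes, 737 and 1023 were lower and 6171 and 9423 higher on that scale. Several list members are also expressed in leukocytes, and all 10 macrophage and monocyte markers rose at both times. The part of leukocytes in the changes of this list was not tested.

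Of 14 tip cell and sprouting genes, which mark endothelial cells at the front of a growing vessel, 2 rose and 1 fell in day 1 AMI, whereas 9 rose and 0 fell in day 7 AMI, with median log2 FCs of 0.35 and 1.11. Among all genes tested, 22.0% rose and 19.9% fell on day 1, and 30.9% rose and 28.4% fell on day 7. *Apln*, the apelin ligand, rose on day 1 by 1.48 (SE 0.325, adjusted p = 0.00251) and *Cxcr4*, a chemokine receptor also found on leukocytes, by 0.78 (adjusted p = 0.0344), and *Hey1*, a Notch target, fell by 0.75 (adjusted p = 0.042). On day 7 the largest rises were those of *Esm1*, a VEGF-induced proteoglycan gene, at 2.05 (SE 0.325, adjusted p = 8.77e-05), and of *Aplnr*, the apelin receptor, at 2.05 (SE 0.351, adjusted p = 0.000172). With limma on log2(TPM + 1) 7 rose on day 1, 12 rose on day 7 and 0 fell at either time. On that scale 6171 of all 15306 genes rose on day 1 and 9423 on day 7. With single hearts left out of the edgeR fit 7 to 10 rose on day 7.

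For each member, the gene whose log2 CPM was most like it over the 12 libraries was sought among 12185 others with a mean of at least 1 TPM. Group differences and library make-up are shared by these points, and the correlations are descriptions. *Vegfb* was closest to *Oat* and *Pccb*, both genes of mitochondrial enzymes (Pearson r 0.997 and 0.995). *Pgf* was closest to *Slc3a2*, an amino acid transporter subunit, and *Gadd45g*, a stress-response gene (0.971 and 0.970), and *Angpt2* to *Arid5a* and *Ifitm2* (0.977 and 0.959). *Kdr* was closest to *Gp1bb* and *Btnl9* (0.907 and 0.903), *Flt1* to *Phyhd1* (0.982), *Flt4* to *Arfip2* and *Cmklr1* (0.979 and 0.971), and *Tek* to *Fmo1* and *L3hypdh* (0.968 and 0.960). *Gp1bb* was low, at 0.22 to 0.88 CPM in day 1 AMI. Its highest value, 4.31 CPM, was in sham replicate 2, the heart with the highest erythroid marker sum and the highest *Kdr*. *Vegfc* was closest to *Zfp105* and *Lpar6* (0.933 and 0.917) and *Angpt1* to *Hspb3* and *Sarnp* (0.924 and 0.917). *Nrp1*, which did not change with TMM, had the weakest match, *Zfp873* and *Pggt1b* (0.83 and 0.80).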

How the data were processed

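Total RNA from whole mouse hearts was sequenced as 150-bp paired-end reads from random-primed cDNA, in 4 libraries for each of the 3 groups, assigned by their labels. The authors trimmed reads with Cutadapt and aligned them to Ensembl GRCm38.92 with STAR 2.4.0j, and the submitters' processing notes also list CASAVA 1.8. The authors deposited whole-number counts per gene without normalization, and TPM from RSEM rounded to 2 decimals. The counting tool, the strand counted and the handling of reads that align to several genes were not given in the sources used here. The total was 23204551 to 32166517 counts per library, and counting error is larger for genes of low count such as *Angpt2*. Libraries of one group differed beyond sampling noise (chi-square per degree of freedom at least 9.25).

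Counts were fitted with edgeR 4.0.16 in R 4.3.3 (TMM, filterByExpr by group, quasi-likelihood test of 3 groups in one fit) with Benjamini-Hochberg adjustment over 15306 genes. SEs are those implied by the F statistic, and log2 CPM used a prior count of 2. Replicate numbers were not treated as pairs, as labels tie the numbers to no shared animal or batch. Alternatives were DESeq2 1.42.0, edgeR with RLE size factors, with library sizes alone, without the filter, with a block for replicate number and on 2 groups at a time, limma 3.58.1 with a pseudocount of 1 or 0.1 added to TPM before log2, and each heart left out. Ratios from counts and the *Cdh5* denominator were added after seeing the data. On simulated counts of day 1 AMI against sham with 200 changed genes, edgeR recovered 192 with 7 false calls among 15121 genes tested (92 of the 100 changed by a FC of 2), DESeq2 recovered 196 with 26 false calls, and limma on log2(TPM + 1) recovered 187 with 4. Apart from the 200 genes all simulated libraries shared one expression profile, so this run cannot judge the choice of scaling. No change smaller than a FC of 2 was simulated.

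The 10 genes and the lists were chosen with earlier results of these data known. Named besides the members are, from each pathway list, the 2 genes with the largest rise and the 2 with the largest fall past the threshold at each time against sham, the 2 most similar genes per member (1 for *Flt1*, the other is not reported here), markers given beside a result, and 3 genes singled out after their values were seen (*Vegfd*, *Nrp2*, *Tie1*). Where a listed symbol had several identifiers (*Itgam*, *Ccl21a*), the one with the highest total was used. Gene positions are from GENCODE M21.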

Additional observations from a re-analysis of the deposited data

Results flagged for a closer look

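In 3 of 30 sets of 4 hearts (10 genes in 3 groups) the highest heart stood apart from the rest of its group by Dixon's criterion, which chance alone meets in about 1 of 20 sets. *Angpt1* had 132 CPM in day 1 AMI replicate 4, against 61.4 to 63.6 in the other day 1 AMI hearts, and this heart also had the lowest ratio of *Angpt2* to *Angpt1* of the 12, at 0.0435. *Nrp1* had 151 CPM in the same heart, against 132 to 134 in the others. *Pgf* had 7.92 CPM in day 7 AMI replicate 1, against 4.50 to 5.07 in the others. What set these hearts apart was not tested.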

How the results depend on the processing

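With DESeq2, RLE size factors and no filter on low counts, each of the 30 changes of the 10 genes kept its direction and its side of the threshold. Scaling mattered more. On library sizes alone 17 of 30 did so, 4 lost their call, 3 gained one and 6 turned, and with limma on log2(TPM + 1) and log2(TPM + 0.1) the numbers were 13, 6, 4 and 7. The log2 FCs that turned, given for library sizes alone, pseudocount 1 and pseudocount 0.1, were those of *Flt1* (0.10, 0.15 and 0.15), *Nrp1* (0.25, 0.30 and 0.30) and *Vegfc* (0.028, 0.27 and 0.34) in day 1 AMI against sham and of *Kdr* (0.38, 0.55 and 0.56), *Pgf* (0.23, 0.43 and 0.52) and *Tek* (0.39, 0.53 and 0.55) in day 7 AMI against sham, with *Angpt2* between the AMI groups at 0.013 and 0.037 on the TPM scales. None of these had passed with TMM. Relative to the median of all genes, 8, 8 and 10 of the 10 genes kept their sign on log2(TPM + 1) in the 3 comparisons. With a FC of 2 required as well, 2 members were called in day 1 AMI against sham, 2 in day 7 AMI against sham and 2 between the AMI groups.

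With single hearts left out, 326 of 360 changes kept direction and call. The number of members called in day 7 AMI against sham ran from 3 (without sham replicate 1 or day 7 AMI replicate 1) to 5. The sign turned for changes near 0, which ran from −0.13 to 0.11 for *Kdr*, from −0.39 to 0.27 for *Pgf* and from −0.040 to 0.018 for *Tek* in day 7 AMI against sham, and from −0.072 to 0.048 for *Nrp1* and from −0.39 to 0.000604 for *Vegfc* in day 1 AMI against sham.

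No clear pairing of hearts by replicate number was seen. Deviations from group means correlated at −0.24 to 0.23 over 12 same-numbered pairs, above 0.1 in 4, and 2 of 12 libraries correlated best with their own number. With so few libraries this check cannot exclude a shared batch. A block for the replicate number left 5 members called in day 1 AMI against sham (6 without it), 5 in day 7 AMI against sham and 8 between the AMI groups, and *Flt4* on day 1 no longer passed (adjusted p = 0.0535 with edgeR). With only the 2 groups compared in the fit that call was also lost (adjusted p = 0.0548), and the other 29 were as before. The cause of these changes was not tested.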
